A study of Mus musculus with 2 samples.

Results

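The T cell receptor complex and its coreceptors were followed through 10 genes of the 20140 in the tables, taken by name: Cd3d, Cd3e, Cd3g, Cd247, Cd4, Cd8a, Cd8b1, Trac, Trbc2 and Trgv2. The study compared submandibular and sublingual glands from female mice (strain C57BL6/J, 14 weeks old) 14 days after a metal clip had closed the main ducts (ligated) or after surgery that found the ducts and left them unclipped (mock). Each condition was 1 droplet library made from 2 glands, after bead depletion of EpCAM-bearing epithelial cells and Ter119-bearing red blood cells and after dead cell removal, so cell shares describe what this left and not the gland. There were 4199 mock and 11406 ligated cells in 12 clusters. With 1 library per condition there is no replicate spread, no difference carries a test, and every value describes these 2 libraries only.

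A T cell recognises antigen through a receptor of variable chains, either alpha with beta or gamma with delta, each made by joining gene segments to a constant region. These chains signal poorly alone: they sit in the membrane with CD3 delta, epsilon and gamma and with the zeta chain (Cd247), whose cytoplasmic tyrosine motifs are phosphorylated when the receptor is engaged. CD4 and CD8 are coreceptors that bind class II and class I major histocompatibility molecules and bring the kinase Lck to the complex. Conventional natural killer cells are lymphocytes without a rearranged T cell receptor, but they use the zeta chain as an adaptor for other activating receptors. Duct ligation of the salivary gland is a model of obstruction in which acinar cells are lost and lymphocytes and fibroblasts gather in the gland.

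Every value below counts UMIs (unique molecular identifiers, 1 per captured RNA molecule) of a gene per 10000 UMIs of a cell, averaged over a cluster's cells. Differences are log2((ligated + 0.1)/(mock + 0.1)), a scale on which low genes seem to change less than they do. The size rule asks for a level of at least 0.5 in either library and a difference of at least 1 in size. Levels are compared between clusters and libraries for the same gene, since UMIs of different genes are not corrected for length.

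Cluster 2 was T cell-like: all 11 T cell markers, 5 of them members, had their highest cluster level there, and 8 of the 10 members stood among its 10 leading genes. It held 155 mock cells, or 3.69% of that library (exact Clopper-Pearson 95% interval 3.14 to 4.31), and 1393 ligated cells, or 12.2% (11.6 to 12.8). Those intervals cover counting error only and not the spread between animals. Cluster 1 was natural killer-like, with all 11 of its markers highest there, and held 679 mock and 3353 ligated cells. Of 7 markers of type 2 innate lymphoid cells, 5 were also highest in cluster 1. Those 7 summed to 2.00 in mock and 0.980 in ligated cells there, against 55.0 and 44.1 for the natural killer markers. UMI totals recovered for part of the cells had a median of 6268.5 in T mock cells, 7546 in T ligated cells, 8032.5 in natural killer mock cells and 8313 in natural killer ligated cells. In a cell of that depth 1 UMI adds 0.0103 to the T mock mean and 0.000951 to the T ligated mean, so low values are far coarser in the mock library. Markers of other cell types stood at a median of 3.80% of their library mean in the T mock cells and 8.95% in the T ligated cells. Their part in the members' values was not tested.

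In the T cell-like cluster both CD8 genes were higher after ligation by more than the size rule, and the CD3 and receptor chain genes were higher by less. Of the 10 members, 9 reached a level of 0.5 in either library, and 2 of these, Cd8a and Cd8b1, were past the rule, both higher in the ligated library. Over all 2958 genes that reached that level in this cluster, the rule called 5.34% in either direction and 3.08% higher after ligation. These include genes at 0 in every column of 1 library, which no member is. With such genes left out, the rule called 3.01% of 2887 genes in either direction, 45 of them higher, and Cd8a and Cd8b1 were still past it. Without the level filter, 9 of the 10 members were higher in the ligated library and Cd4 was lower, with a median difference of 0.44. Among all genes whose mean of both libraries was at least 0.05, 48.8% were higher and the median was -0.01. Ranked by difference among the 2958, with genes at 0 in 1 library kept, Cd8b1 was number 80 and Cd8a number 84. Cd3g, the last member, was number 697.

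**Figure D1:**
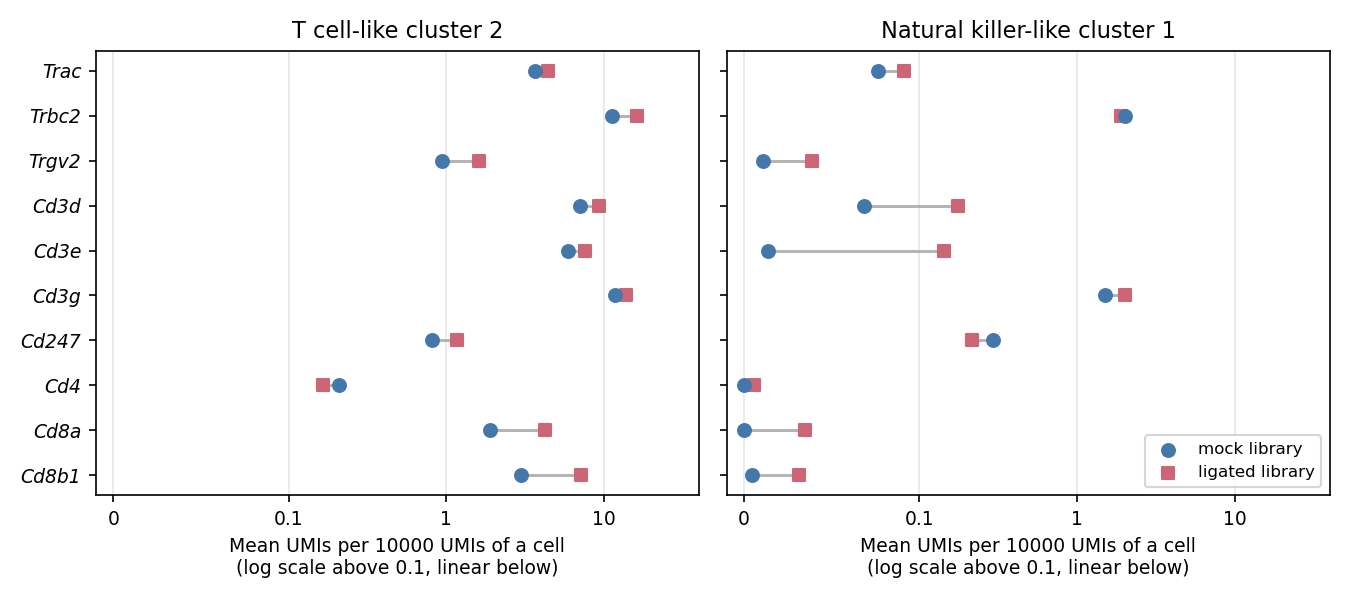
Level of each member in the T cell-like cluster 2 (left) and the natural killer-like cluster 1 (right), in mean UMIs per 10000 UMIs of a cell on an axis that is logarithmic above 0.1 and linear below. Circles are the mock library, squares the ligated library, and a grey line joins them; 9 members lie higher after ligation in cluster 2, and in cluster 1 only Cd3g and Trbc2 lie above 1.

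The CD8 coreceptor pairs an alpha and a beta chain on most cytotoxic T cells. Cd8a, which encodes the alpha chain, averaged 1.90 in mock and 4.22 in ligated T cells, a difference of 1.11. Cd8b1, which encodes the beta chain, averaged 2.97 and 7.14, a difference of 1.24. The genes lie side by side on the plus strand of chromosome 6 in GRCm38, Cd8b1 at chr6:71322788-71337494 and Cd8a at chr6:71373427-71379173, with 35932 bases between them. Set against Cd3e in the same cells, Cd8b1 stood at 0.504 times its UMIs in mock and at 0.943 times in ligated cells, whereas the corresponding multiples of Cd3d were 1.19 and 1.23. The CD8 beta chain gene was thus higher relative to Cd3e in the ligated library, while Cd3d kept nearly the same multiple. Cd8a was at 0 in mock natural killer cells and at 0.0346 in ligated ones.

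Cd4, the coreceptor of helper T cells, was low everywhere. It averaged 0.210 in mock and 0.164 in ligated T cells, a difference of -0.23, and its higher value did not reach the 0.5 that the size rule asks for. The gene lies at chr6:124864692-124888221 on the minus strand. Outside the T cells its level was highest, among the clusters compared, in the macrophage-like cluster 5, at 0.0211 in mock and 0.0524 in ligated cells, which was 10.1% and 31.9% of the T cell level. Among the genes fixed beside the members, Zbtb7b, a transcription factor of the helper lineage, averaged 0.158 and 0.107.

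The CD3 genes carry the signalling subunits common to alpha beta and gamma delta receptors. Cd3d averaged 7.03 in mock and 9.32 in ligated T cells, a difference of 0.40. Cd3e averaged 5.88 and 7.57, a difference of 0.36. Cd3g averaged 11.7 and 13.8, a difference of 0.24. All 3 cluster means were therefore higher in the ligated library, by less than the size rule. The middle 50% of differences, over genes that reached 0.5 in this cluster, ran from -0.21 to 0.23. Cd247, which encodes the zeta chain from chr1:165788681-165877277, averaged 0.809 and 1.16, a difference of 0.47. Its span overlaps Pou2f1 on the opposite strand, as that of Cd3e overlaps the antisense gene Gm48719, and whether counting used strand is not given in the sources used here. On the same strand, Cd247 overlaps Gm16565 and Cd3e overlaps Gm48720.

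The 3 CD3 genes form a compact group on chromosome 9. Cd3g (chr9:44969572-44980431, minus strand) and Cd3d (chr9:44981786-44987339, plus strand) are transcribed away from each other from starts 1354 bases apart, and Cd3e lies beyond Cd3d at chr9:44998740-45009627 on the minus strand. All lie within 40056 bases. Their promoter windows are shown because the 3 genes are neighbours. Being higher after ligation was not particular to them, since 9 of the 10 members were. Each window is the 250 bases before the RefSeq start in GRCm38.p6, on the strand of the gene. Capitals mark matches, on either strand, to short motifs of factors active in T cells. Ets factors were searched as AGGAAG. Runx factors were searched as TGTGGT, and Gata factors as AGATAA. Tcf factors were searched as CTTTGA. E proteins were searched as CAGGTG and also in the form CAGCTG. No match overlapped another.
Cd3d (chr9:44981536-44981785): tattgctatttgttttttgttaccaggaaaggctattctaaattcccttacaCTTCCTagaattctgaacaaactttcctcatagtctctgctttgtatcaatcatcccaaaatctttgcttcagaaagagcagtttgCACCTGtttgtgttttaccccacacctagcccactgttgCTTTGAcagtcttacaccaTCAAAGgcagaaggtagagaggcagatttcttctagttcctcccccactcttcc
Cd3e (chr9:45009612-45009861): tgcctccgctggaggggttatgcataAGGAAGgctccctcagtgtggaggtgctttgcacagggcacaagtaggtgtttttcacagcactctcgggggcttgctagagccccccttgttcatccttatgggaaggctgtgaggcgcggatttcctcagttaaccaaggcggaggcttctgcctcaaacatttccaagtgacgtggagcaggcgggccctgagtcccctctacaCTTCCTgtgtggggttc
Cd3g (chr9:44980432-44980681): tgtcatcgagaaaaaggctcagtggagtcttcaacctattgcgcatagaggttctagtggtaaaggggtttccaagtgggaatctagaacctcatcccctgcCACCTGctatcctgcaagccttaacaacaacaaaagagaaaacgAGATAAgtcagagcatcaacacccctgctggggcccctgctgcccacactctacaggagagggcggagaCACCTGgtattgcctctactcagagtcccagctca

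Cd3d held 1 Ets match 198 bases before its start, 1 CAGGTG match at 112 bases and 2 Tcf matches at 73 and 54 bases. Cd3e held 2 Ets matches, at 224 and 17 bases, and none of the other motifs. Cd3g held 2 CAGGTG matches, at 148 and 35 bases, and 1 Gata match at 104 bases, with no Ets match. RefSeq windows were found for 5 of the 10 members, these 3 with Cd247 and Cd8a. AGGAAG was in 3 of the 5 and in 29.5% of all 32851 windows of this length, and CAGGTG was in 3 of the 5 and in 17.2%. The Runx and CAGCTG motifs were in none of the 5 and in 14.0% and 13.0% of all windows. No motif was common to all 3 CD3 windows, and a match of such short letters is a description of the sequence.

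Receptor chain genes of the alpha beta and gamma delta kinds did not move as a block. Trac, the constant region of the alpha chain (chr14:54220521-54224206, plus strand), averaged 3.65 in mock and 4.42 in ligated T cells, a difference of 0.27. Trbc2, a constant region of the beta chain (chr6:41546730-41548352, plus strand), averaged 11.3 and 16.1, a difference of 0.51. Its neighbour Trbc1, which is no member and encodes the alternative beta constant region, averaged 5.73 and 4.92, a difference of -0.22. Trbc2 was thus higher and Trbc1 lower in the same ligated cells. The coding parts of these genes, 6848 bases apart, differ at 23 of 521 bases (95.6% identical), so the split of reads between them depends on which part was read, and the end of the transcript that was captured is not given in the sources used here. Their first 150 coding bases are the same, and 22 of the 23 differences fall in the last 150, shown here from the GENCODE transcripts with the differing bases in capitals.
Trbc1, last 150 coding bases: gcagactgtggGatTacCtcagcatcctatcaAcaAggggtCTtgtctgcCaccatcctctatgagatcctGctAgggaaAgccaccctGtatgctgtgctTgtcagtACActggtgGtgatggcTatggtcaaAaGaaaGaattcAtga
Trbc2, last 150 coding bases: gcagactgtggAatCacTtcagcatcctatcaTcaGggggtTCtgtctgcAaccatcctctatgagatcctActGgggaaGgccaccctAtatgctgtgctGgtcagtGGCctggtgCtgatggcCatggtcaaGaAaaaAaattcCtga

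Trgv2, a variable segment of the gamma chain (chr13:19336573-19337167, minus strand), averaged 0.940 in mock and 1.61 in ligated T cells, a difference of 0.72. Tcrg-C2, the gamma constant region 29021 bases away on the same strand (chr13:19304649-19307551), averaged 0.349 and 1.08, a difference of 1.39 that was past the size rule. By contrast Tcrg-C1 averaged 0.752 and 0.482, a difference of -0.55, and Tcrg-C4 averaged 0.590 and 0.661, a difference of 0.14. Gamma constant regions therefore stood on both sides of 0 in the same cells. Of other gamma variable segments, Tcrg-V1 averaged 0.112 and 0.243, Tcrg-V6 0.102 and 0.0222, and Tcrg-V4 0.0861 and 0.0292. Tcrg-C1 and Tcrg-C2 are 97.4% identical over 503 aligned coding bases, with 13 differences, so reads may have been split between them. Their first 150 coding bases hold 4 of these differences, in capitals here.
Tcrg-C1, first 150 coding bases: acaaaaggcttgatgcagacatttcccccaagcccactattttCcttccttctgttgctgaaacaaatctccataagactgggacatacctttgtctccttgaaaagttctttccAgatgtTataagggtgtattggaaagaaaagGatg
Tcrg-C2, first 150 coding bases: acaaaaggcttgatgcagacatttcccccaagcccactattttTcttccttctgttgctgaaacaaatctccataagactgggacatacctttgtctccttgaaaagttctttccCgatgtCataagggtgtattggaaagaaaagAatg

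In the T cell-like cluster the delta genes Trdc and Trdv4 were lower after ligation, while Trgv2 was higher. Trdc, the delta constant region (chr14:54142851-54148868), averaged 2.37 in mock and 0.973 in ligated T cells, a difference of -1.20. Trdv4, a delta variable segment, averaged 0.555 and 0.136, a difference of -1.48. The other delta segment that could be compared, Trdv2-2, was near 0, at 0.00357 and 0.00564. Trdc and Trdv4 were past the size rule, which called 2.27% of the 2958 genes as lower. The tables held 65 receptor segments besides the members, of which 6 reached a level of 0.5 in this cluster: Tcrg-C2 was past the rule as higher, Trdc and Trdv4 as lower, and Trbc1, Tcrg-C1 and Tcrg-C4 were not past it. Most alpha and beta variable segments could not be compared, because 28 of 31 alpha and 13 of 18 beta variable rows belong to a block of 3150 rows at the end of the tables that is at 0 in every mock column. All 10 members lie outside that block. Trdv4 was not confined to the T cells: it averaged 0.277 in mock and 0.244 in ligated natural killer-like cells. These held 66.2% of its summed expression in mock and 74.7% in ligated. Means over whole libraries, with each library's own cell numbers, were 0.251 and 0.271 for Trdc and 0.0678 and 0.0962 for Trdv4, so neither was lower there. When the ligated cluster means were weighted by the cell numbers of the mock library, both were lower. The ligated mean was then 0.143 for Trdc and 0.0553 for Trdv4.

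**Figure D2:**
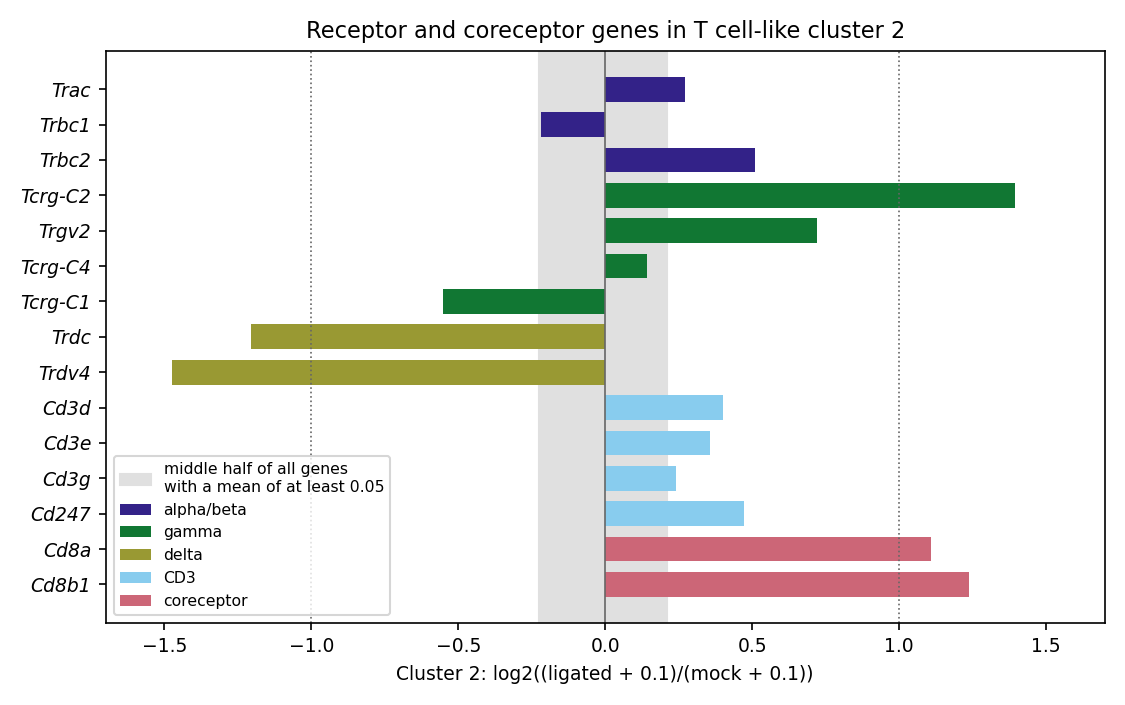
Difference of receptor and coreceptor genes in T cell-like cluster 2, as log2((ligated + 0.1)/(mock + 0.1)); the grey band spans the middle 50% of all genes with a mean of at least 0.05, and dotted lines mark a size of 1. Cd8a, Cd8b1 and Tcrg-C2 pass the right line, Trdc and Trdv4 the left one.

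In the natural killer-like cluster, member levels ran from 0 to 2.03. Trbc2 averaged 2.01 in mock and 1.90 in ligated cells, a difference of -0.07, and Cd3g averaged 1.50 and 2.03, a difference of 0.41. Cd247 averaged 0.291 and 0.215, a difference of -0.31. Below Cd247 in both libraries, Cd3e averaged 0.0139 and 0.144, Cd3d 0.0687 and 0.175, and Trac 0.0764 and 0.0911. Cd8b1 averaged 0.00433 and 0.0315, Trgv2 0.0107 and 0.0388, and Cd4 was at 0 in mock and 0.00577 in ligated cells. Only Cd3g and Trbc2 reached a level of 0.5 there, and 0 of the 2 were past the size rule, which called 4.56% of 2896 genes. Cd3e differed by 1.10 but stayed under that level, and this difference was 2.68 with a pseudocount of 0.01, 0.17 with a pseudocount of 1 and 0.59 after the library mean profile was subtracted. Markers of other cell types stood at a median of 2.08% of their library mean in mock and 7.40% in ligated natural killer-like cells, and their part in these low values was not tested.

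In the ligated library the proportions among some members there differed from those in the T cells. For each UMI of Cd3e the ligated natural killer cells held 14.1 of Cd3g and 13.3 of Trbc2, against 1.83 and 2.12 in the ligated T cells. The same multiples are not given for the mock natural killer cells, whose Cd3e level of 0.0139 rests on few UMIs, since 1 UMI adds 0.00183 there. Trbc1 was also present there, at 2.88 in mock and 2.52 in ligated cells, as was Trdc, at 0.717 and 0.422. Cd3g was 7.80 times higher in T than in natural killer cells of the mock library and 6.83 times in the ligated one, whereas for Cd3e that ratio was 52.7 in ligated. Summed over 11 T cell markers, cluster 1 held 8.73 in mock and 8.13 in ligated cells, against 56.8 and 64.3 in cluster 2. Natural killer markers in turn summed to 20.6 and 15.6 in the T cell-like cluster, against 55.0 and 44.1 in cluster 1. The part of each cell type's RNA in the other's cluster was not tested.

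Natural killer-like cells, which outnumbered the T cells, held a large part of some members' RNA. In the mock library cluster 1 held 34.2% of all Cd3g expression summed over cells, 41.5% of Trbc2 and 52.1% of Cd247, while cluster 2 held 60.9%, 53.1% and 33.0%. In the ligated library those shares were 24.0%, 20.1% and 27.7% in cluster 1 and 67.9%, 70.4% and 62.2% in cluster 2. For Cd3e cluster 2 held 93.3% in mock and 86.4% in ligated, for Cd3d 89.5% and 86.7%, for Cd8a 95.1% and 89.4%, and for Cd8b1 87.7% and 90.5%. Trac in cluster 2 made up 83.7% and 83.9%, and Trgv2 89.3% and 89.7%. Cd247 was the member for which the larger holder changed, from cluster 1 in the mock to cluster 2 in the ligated library. Cd4, with its low counts, had 92.9% and 71.0% in cluster 2.

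Over whole libraries the members differed far more than within the T cells. A library mean combines the cell numbers of all clusters and the level in each cluster, so these ratios are not changes within the T cells. Cd3e averaged 0.233 over all mock cells and 1.07 over all ligated cells, a ratio of 4.60, and Cd3d differed by a ratio of 4.52. The ratio was 7.80 for Cd8a, 7.71 for Cd8b1 and 5.65 for Trgv2, and it was 4.00 for Trac, 3.57 for Trbc2, 3.51 for Cd3g and 2.53 for Cd247. When the ligated cluster means were weighted by the cell numbers of the mock library, the ratios fell to 1.66 for Cd3e, 2.82 for Cd8a, 2.64 for Cd8b1 and 2.00 for Trgv2. On that weighting Cd247 differed by a ratio of 1.12, Cd3g by 1.45 and Trbc2 by 1.47. With each library's own cells, 7 members reached a level of 0.5 and 7 were past the size rule as higher, where it called 6.38% of all genes as higher. Of these, Cd3d, Cd3e, Cd8a, Cd8b1 and Trac reached that level only in the ligated library. For Cd8a, Cd8b1 and Trac, whose mock means were lowest among these, reaching it already meant passing the rule. At the mock cell numbers 2 members reached that level and 0 were past the rule, where it called 2.87% as higher. The CD8 genes had the highest ratios of the 10 members on both weightings.

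In the 7 other clusters with at least 50 cells per library the members were low, and most were higher in the ligated library. Of the 65 member levels that differed there, 60 (92.3%) were higher after ligation. Over all genes outside the block that is at 0 in mock, 57.4% of the levels that differed in these clusters were higher, with a range of 50.5% in cluster 3 to 69.9% in cluster 10. That share leaves out rows that could only be higher but keeps 689 rows at 0 in every ligated column, which could only be lower. As a share of the T cell level of the same library, the median member stood at 0.197% in mock and 0.786% in ligated cells of the endothelial-like cluster 0, and at 0.148% and 1.44% in the fibroblast-like cluster 3. In the macrophage-like cluster 5 it stood at 0.297% and 4.27%. In the mural-like cluster 6 the median member was at 0 in mock and at 2.52% in ligated cells. Members past the size rule were Trbc2 in cluster 5 (0.00909 and 0.862), Cd3g in cluster 5 (0.121 and 0.622) and Trbc2 in cluster 6 (0 and 0.550). Each reached a level of 0.5 only in the ligated library, and from so low a mock level reaching it already meant passing the rule. As higher, the rule called 4.15% of the genes at that level in cluster 5, 4.92% in cluster 6, 3.92% in cluster 0, 4.47% in cluster 3, 3.29% in cluster 4, 14.8% in the ductal-like cluster 7 and 23% in the erythroid-like cluster 10. The part of free RNA and mixed droplets in these values was not tested, and the levels are not given as expression by endothelial, stromal or macrophage-like cells.

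**Figure D3:**
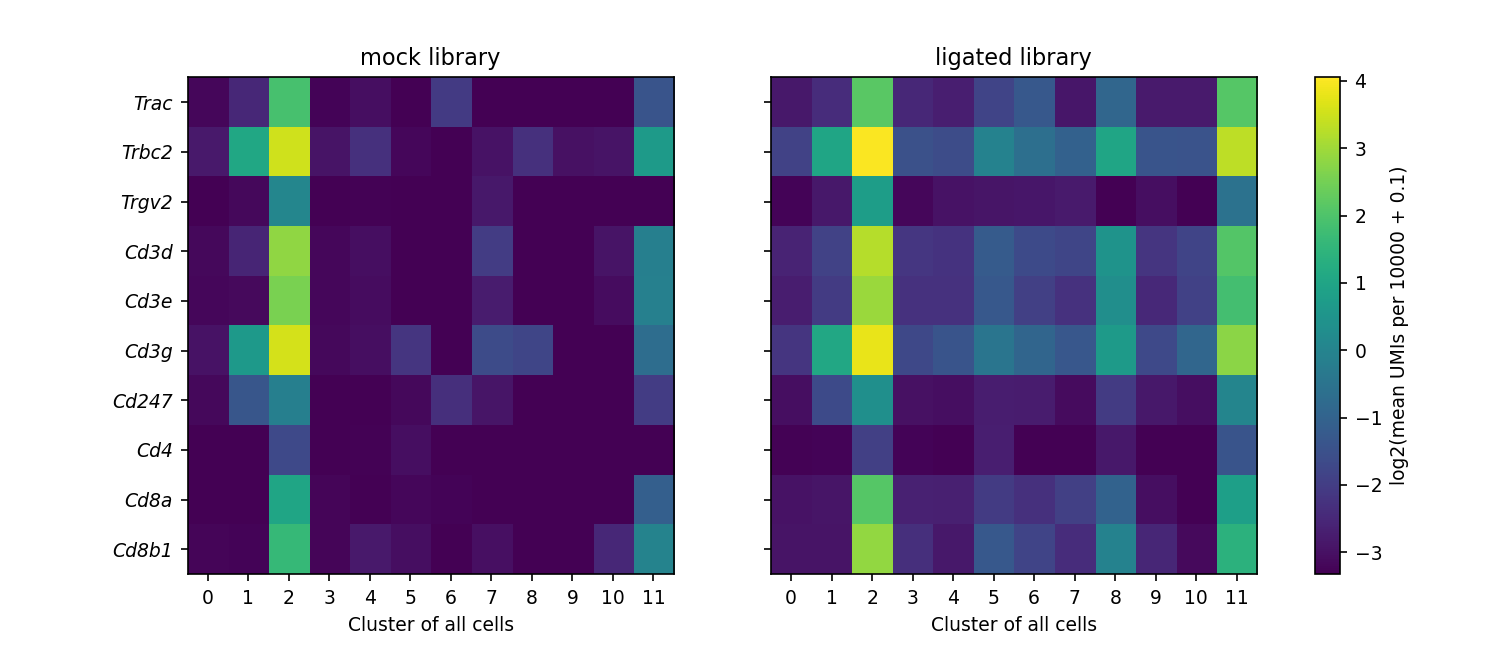
Level of each member in all 12 clusters, as log2(mean UMIs per 10000 + 0.1), for the mock (left) and the ligated library (right). Cluster 2 is T cell-like, cluster 1 natural killer-like, and cluster 11 is led by cycling genes; Trbc2 and Cd3g stand out in cluster 1 in both libraries.

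Genes that act just downstream of the receptor were nearly level. Of 31 genes of proximal signalling, 17 were higher and 14 lower in ligated T cells, with a median difference of 0.05, and 1, Ubash3a, was past the size rule. Ubash3a, a negative regulator of receptor signalling, averaged 0.196 in mock and 0.820 in ligated T cells. Lck, the kinase that phosphorylates the CD3 and zeta motifs, averaged 4.04 and 4.86. Ptprc, the phosphatase CD45 that acts on Lck, averaged 10.3 and 10.7, and the adaptor Fyb averaged 3.59 and 4.52. Lat, the scaffold that is phosphorylated after receptor engagement, averaged 1.93 and 3.09. In natural killer-like cells 11 of the 28 signalling genes with a mean of at least 0.05 were higher and 17 lower, and none was past the rule.

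Costimulatory and adhesion genes were mostly higher, by less than the rule. Of 13, 9 were higher and 4 lower in ligated T cells, with a median of 0.30. Thy1 averaged 3.73 and 4.61, Cd2 3.36 and 3.43, and Cd226, a receptor that T and natural killer cells both use, 2.08 and 2.94. Adaptors that carry the same type of tyrosine motif or a related one for other receptors were present as well. Fcer1g averaged 10.9 in mock and 12.8 in ligated T cells and 28.0 and 36.2 in natural killer cells, and Tyrobp averaged 5.62 and 8.23 in T cells and 24.2 and 33.3 in natural killer cells. Hcst averaged 8.30 and 10.9 in T cells. Cd79a, the adaptor of the B cell receptor, was at 0 in mock T cells.

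Early response genes of the receptor did not follow the members. Of 12 with a mean of at least 0.05, 3 were higher and 9 lower in ligated T cells, with a median of -0.23, and none was past the rule. Cd69, an activation and retention receptor, averaged 5.00 and 6.43. The cytokine genes Ifng and Tnf averaged 1.41 and 1.02, and 1.27 and 0.856. Among lineage factors 3 of 15 were higher and 12 lower, and Tcf7, a factor of T cell development and of naive and memory cells, was past the rule at 1.00 and 0.396. Bcl11b, which maintains T cell identity, averaged 1.66 and 2.04, Runx3, a factor of the CD8 lineage, 3.38 and 3.32, and Id2 9.38 and 8.15. Of the genes of receptor rearrangement in the thymus, only Ptcra had a row, at 0.0165 and 0.0219.

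Genes of naive and circulating T cells, and those of gamma delta T cells that make interleukin-17, were lower while the CD8 genes were higher. Of 10 naive and circulating genes, 9 were lower and 1 higher in ligated T cells, with a median of -1.05. Il7r, the receptor of the survival cytokine interleukin-7, averaged 6.22 and 1.63. Klf2, a factor that keeps T cells in circulation, averaged 3.54 and 1.61, and Satb1 averaged 1.01 and 0.397. Il7r was also past the rule in natural killer-like cells, at 0.891 and 0.225. Of the 14 interleukin-17 gamma delta genes, 13 had a mean of at least 0.05 in T cells, and all 13 were lower in the ligated library, with a median of -0.84. Among them Il17f, Il23r, Kcnk1 and 5830411N06Rik were under 0.05 in the ligated library and reached that mean only through the mock library, where low values are coarse. Cd163l1 averaged 0.540 and 0.135, and Maf, a transcription factor of these cells, 2.04 and 0.828. Trdc and Trdv4 belong to that list too. A mean over the cluster does not tell whether the level in each kind of T cell changed or the mix of kinds.

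**Figure D4:**
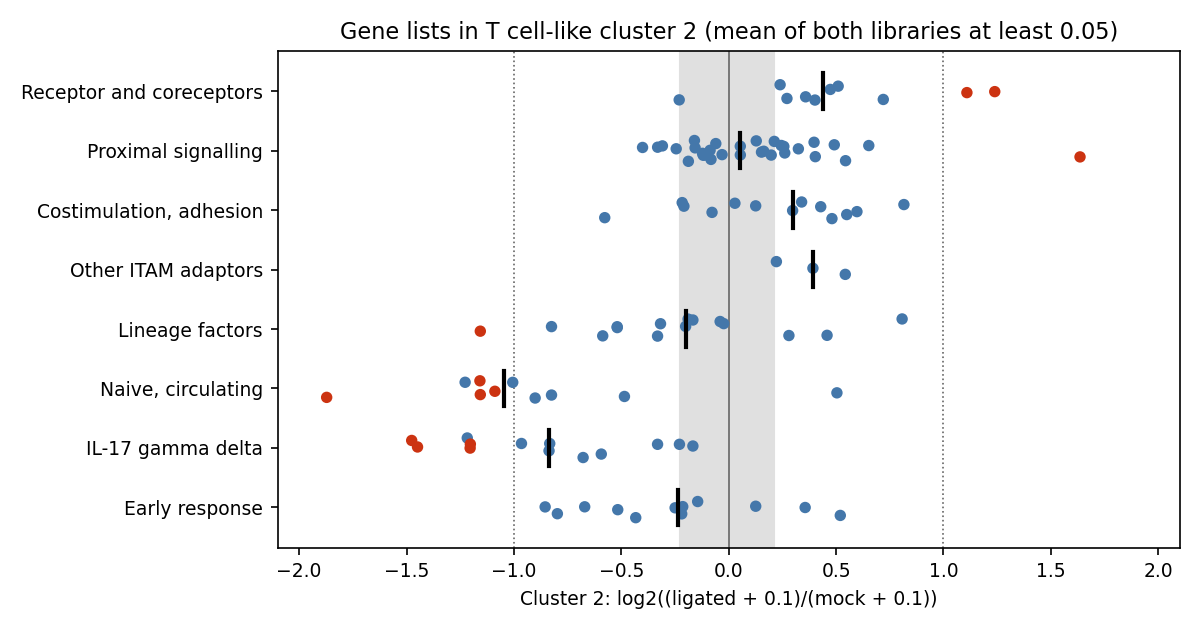
Difference of each listed gene in T cell-like cluster 2, as log2((ligated + 0.1)/(mock + 0.1)), for genes with a mean of both libraries of at least 0.05. Black bars are list medians, red points are past the size rule, the grey band spans the middle 50% of all such genes and dotted lines mark a size of 1; the 10 members have a median of 0.44 and the 10 naive and circulating genes one of -1.05.

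The genes with the pattern most like each member were sought over the 24 columns of the 12 clusters in both libraries, among 7968 genes that reached 0.5 in any column, by Pearson correlation of log2(value + 0.1). These are descriptions over columns that share libraries and cells. For Cd3e they were Cd3d (r = 0.995), Cd8b1 (0.978), Cd8a (0.976), Sit1 (0.958) and Trac (0.955). For Cd8a they were Cd8b1 (0.982), Cd3e (0.976), Cd3d (0.972), Sit1 (0.970) and Themis (0.967). Cd247 stood apart, with Ifng (0.971), Cd28 (0.965), Bcl11b (0.949), Lat (0.948) and Icos (0.945). Trgv2 was most like Cd6 (0.962), Tcrg-C2 (0.952), Themis (0.946), Cd5 (0.946) and Pdcd1 (0.939). By Spearman rank correlation these 5 genes were less like Trgv2, with values from 0.455 for Cd5 to 0.801 for Tcrg-C2. Cd4 was not searched, since its highest level in any column was 0.274.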

How the data were processed

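The authors deposited cluster means of 1 mock and 1 ligated single-cell library, made with Cell Ranger 6.0.1, Seurat and mm10 per the submitters' processing notes. Each deposited value, of a unit other than counts or CPM, is a mean over cells of UMIs per 10000: every column sums to 10000. Filters, clustering, doublet removal and the captured transcript end are not given in the sources used here. Doublets were not removed here.

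Cell numbers were recovered from the joint and split means, whose weights met whole denominators within 2e-09. UMI totals came from values of genes seen in 1 cell, a sample that favours deep cells. Dates had replaced 21 gene names, which were restored by row order. Differences used a pseudocount of 0.1, and only the 9 clusters with at least 50 cells per library were compared. The members, gene lists and markers were chosen with earlier results of these data known. All members are named. A list gene is named where past the size rule in cluster 1 or 2 or among its list's 3 highest in cluster 2, and the others were chosen after their values were seen, as was the list minimum of 0.05. Positions come from GENCODE for GRCm38 and promoters from RefSeq. The scripts (Python 3.11.15) were tested on simulated data. Alternatives were other pseudocounts, level minimums and sizes, subtraction of the library mean profile, leaving out genes listed in 1 library, centring, equal cluster weights and rank correlation.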

Additional observations from a re-analysis of the deposited data

How the results depend on the processing

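Cd8a and Cd8b1 were past the size rule in the T cell-like cluster under 6 of the 8 alternatives. With a pseudocount of 1, only Cd8b1 of the members passed (1 member), Cd8a fell short at 0.85, and 56 of all genes passed in place of 158. At a size of 2, 0 members and 95 genes passed. The count of all genes in that cluster was 431 with no minimum level, 38 at a minimum of 2, and 87 when genes at 0 in a library were left out. In the natural killer-like cluster 132 genes became 53 with a pseudocount of 1, 419 with no minimum (1 member, Cd3e), 27 at a minimum of 2, and 60 when genes at 0 in a library were left out. The median share of a member held by clusters 1 and 2, 93.5% in mock and 90.6% in ligated, was 87.5% in mock and 57.8% in ligated with equal cluster weights, and 98.2% in ligated after the library mean profile was subtracted. By rank correlation 2 of the 5 genes most like Cd3e, 2 of those most like Cd8a, 1 for Trgv2 and 0 for Cd247 were shared. In the T cell-like cluster no member's difference changed sign under these alternatives. In the natural killer-like cluster, subtraction of the library mean profile took that of Cd8b1 from 0.33 to -0.02 and that of Trac from 0.12 to -0.27, both far under the level minimum. There the differences of Cd3d (0.71 to 0.13) and Cd8a (0.43 to 0) also shrank with that subtraction. No paired analysis was possible because each condition has 1 library. Low mock levels rest on 155 T cells, and the cause of each change was not tested.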

Other observations

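Clusters with too few mock cells to compare still held members. Cluster 11, led by cycling genes together with S100a8 and S100a9, had 22 mock and 59 ligated cells, with Cd3e at 0.830 and 3.50, Trbc2 at 1.52 and 9.82, Cd8b1 at 0.884 and 2.56 and Trac at 0.279 and 4.24. Cd4 was at 0 in its mock and 0.274 in its ligated cells, its highest level in any column. Cluster 8, led by acinar genes, had 25 mock and 264 ligated cells, with Cd3e at 0 and 1.15, Cd3d at 0 and 1.27 and Cd8b1 at 0 and 0.858, while Trgv2 was at 0 in both libraries.

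Members also appeared in a separate clustering of part of the cells, labelled by Gli1, Pdgfra and Pdgfrb. Its cluster 1 held 14 mock and 435 ligated cells, with Cd3e at 1.79 and 1.43, Cd3g at 3.64 and 2.95, Trbc2 at 3.07 and 3.63 and Cd8b1 at 0.821 and 1.39. In its cluster 0, of 167 mock and 949 ligated cells, Trbc2 averaged 0.00493 and 0.105. Among receptor segments outside the members, Trav22 averaged 0.0420 in mock and 0.0110 in ligated natural killer-like cells, against 0 and 0.00176 in T cells; it was singled out after its values were seen.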
